A study of Mus musculus with 6 samples.

Results

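The open chromatin of 10 chemokine genes was examined: Ccl2, Ccl7, Ccl11, Ccl5, Cxcl1, Cxcl2, Cxcl5, Cxcl10, Cxcl12 and Cx3cl1. The members were regions with an ATAC-seq peak in at least 1 of 6 libraries that overlapped one of these genes or the 20 kb on either side of it. Peaks of different libraries that shared at least 1 base were merged into a region. There were 52 such regions of 85174 in the genome, in 7 separate loci. The genes were chosen with measured values known: Ccl5 and Cxcl12 were listed because regions found only after knockdown had been seen beside them. The presence of these regions is therefore given as a description. Fisher's exact test was run over all regions of the genome, and no p is read for these.

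Chemokines are small secreted proteins that attract leukocytes by binding receptors coupled to G proteins. In the arterial wall, smooth muscle cells release them when exposed to inflammatory stimuli, and monocytes, neutrophils and T cells follow the gradients. Several of the genes lie side by side in clusters of related ligands, and many are switched on through NF-kappaB or interferon-responsive elements near their starts.

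ATAC-seq, in which the Tn5 transposase inserts adapters into accessible DNA, was applied to cultured primary mouse vascular smooth muscle cells from a commercial supplier. The libraries compared were 3 of the negative control group and 3 of cells transfected with siRNA against Arid3a, which encodes an AT-rich-interaction-domain DNA-binding protein. The labels give 24 h after transfection for all 6 libraries. Knockdown libraries 1, 2 and 3 are labelled si-Arid3a#1, #2 and #3. Whether these numbers name different siRNAs or replicates is not clear from that label. If they name siRNAs, siRNA and library cannot be told apart. The question was which accessible regions differ after the knockdown. Strain and age of the mice, and whether the libraries came from separate cultures, are not stated in the labels. The p-values therefore refer only to peak presence in these libraries, whose differences may be technical. The labels also describe an angiotensin II treatment without saying which libraries had it. RNA interference acts on the transcript, so peak lists do not check the knockdown.

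The lists held between 33248 (control 2) and 52091 (control 3) peaks, at an estimated 0.95 to 2 megatags (M tags) per library. Control 2 and knockdown 3 were the shallowest, at 0.95 and 1.19 M tags. The labelled cell type was checked with 8 smooth muscle markers. Tagln, Smtn and Acta2 had a peak within 1000 bases of a start or gene end in 6 of 6 libraries, while Myh11 had none in any library. Between 3 (control 2) and 7 of the 8 markers had such a peak per library. Endothelial markers had 0 to 2 of 6 per library, with Pecam1, Cdh5, Tie1 and Vwf at 0 in each. The leukocyte markers Ptprc, Itgam, Cd3e, Adgre1 and Csf1r had no such peak in any library. Epithelial markers had 0 of 4 and fibroblast markers 1 or 2 of 5. The part of other cell types in the results was not tested. In bulk libraries, fewer cells with an open site and less opening per cell cannot be told apart.

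Upstream sequences are shown for Cxcl1, Cxcl2 and Cxcl10, because a peak covered these stretches at least in part in most libraries and because each holds matches to inflammatory motifs. They come from RefSeq (GRCm38.p6, the same assembly as mm10), run 5′ to 3′ on the gene's strand and end at the base before the start site. Promoter sequences for 5 of the 10 genes were matched in the RefSeq table, namely these and those of Cxcl12 and Cx3cl1. Capitals mark the motif matches. Cxcl1 and Cxcl2 lie on the plus strand at chr5:90891125-90891244 and chr5:90903779-90903898, and Cxcl10 on the minus strand at chr5:92348890-92349139.
Cxcl1: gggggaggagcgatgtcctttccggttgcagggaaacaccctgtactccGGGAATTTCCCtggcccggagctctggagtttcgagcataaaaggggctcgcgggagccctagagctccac
Cxcl2: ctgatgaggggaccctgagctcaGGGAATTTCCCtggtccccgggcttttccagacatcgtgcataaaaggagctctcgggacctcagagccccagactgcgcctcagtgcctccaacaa
Cxcl10: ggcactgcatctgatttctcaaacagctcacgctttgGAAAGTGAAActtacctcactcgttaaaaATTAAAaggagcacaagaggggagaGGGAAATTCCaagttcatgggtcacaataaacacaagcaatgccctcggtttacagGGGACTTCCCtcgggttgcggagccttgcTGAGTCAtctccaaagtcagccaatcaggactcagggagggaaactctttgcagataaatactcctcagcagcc

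Motifs of 5 types were searched on both strands in the 250 bases before to 50 after each start: the kappaB consensus, the ISRE-type motif of interferon response, AP-1 (TGANTCA), the TATA box (TATAAA) and an ARID3A-type motif (ATTAAA). Of 32851 promoters in the table, 4.51% held the kappaB consensus, 3.44% the ISRE-type motif, 7.81% AP-1, 13.6% TATAAA and 13.9% ATTAAA. The same 11-base run carried the kappaB match in Cxcl1, at -71 to -61 from the start, and in Cxcl2, at -97 to -87, where matches on the 2 strands overlap by all but 1 base. In Cxcl10 kappaB matches lay at -159 to -150 and -103 to -94, AP-1 at -74 to -68, the ISRE-type motif at -213 to -204 and ATTAAA at -184 to -179. Cx3cl1 held TATAAA at -6 to -1, and none of the 5 was found in the Cxcl12 window. A match is a description of letters and not a bound site.

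Of the 52 regions, 15 (28.8%) were present in 6 of 6 libraries, against 24.4% of all regions in the genome, and 9 (17.3%) were present in 1 library, against 33.5%. The median window of the 10 genes held 7 regions, while the median protein-coding gene had 4 (quartiles 1 and 6). The regions had a median width of 432 bases, compared with 374 for all regions. By annotation, 12 overlapped one of the 10 gene bodies, 8 lay in another protein-coding gene and 32 in none. Exons, introns and UTRs were not analysed here.

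The number of regions with a peak differed between libraries. Control 1, 2 and 3 held 35, 21 and 36 of the 52 regions, and knockdown 1, 2 and 3 held 34, 37 and 33. As shares, these were 67.3%, 40.4% and 69.2% in control and 65.4%, 71.2% and 63.5% in knockdown libraries. Over all regions the shares were 59.2%, 38.6% and 60.3%, and 58.1%, 59.1% and 48.2%. The groups overlapped, and the low value belonged to the shallowest library, control 2. More knockdown than control libraries held a peak at 17 regions, more control libraries at 11 (33.7% and 27.6% of all regions), and 24 were even. The part of depth in these counts was not tested.

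**Figure D1:**
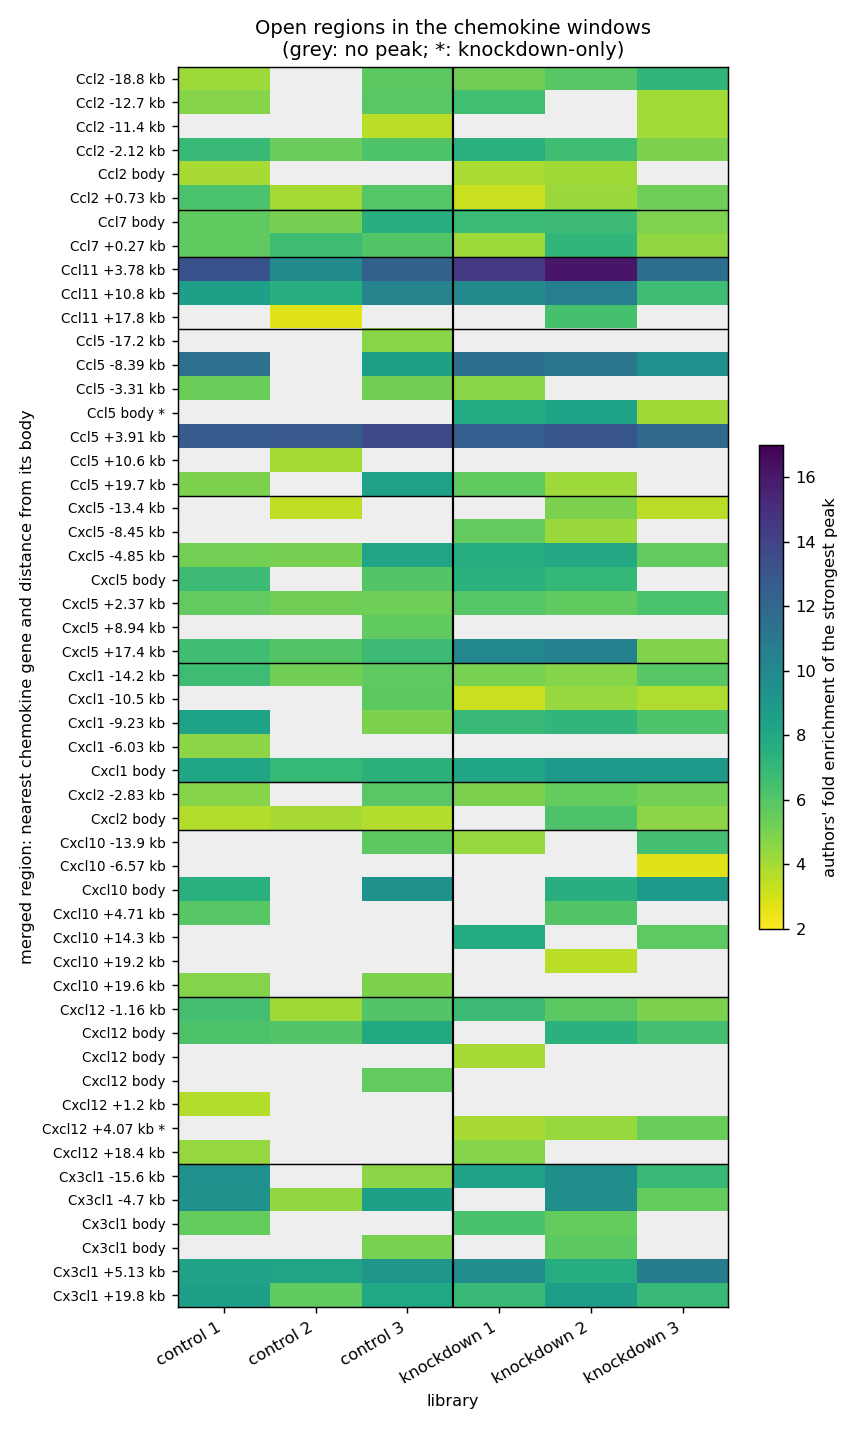
Fold enrichment of the strongest peak of each library in each of the 52 regions, grouped by locus, with a grey cell where no peak was called and an asterisk at the knockdown-only regions. Rows are named by nearest gene and distance in kb (positive toward higher coordinates), columns are the 3 control and 3 knockdown libraries; control 2 has the most grey cells, with peaks in 21 regions.

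The CC chemokines Ccl2, Ccl7 and Ccl11 share a locus on chromosome 11 (mm10) that held 11 regions, 6 of them in 6 of 6 libraries. Ccl2 (chr11:82035577-82037452), also called MCP-1, attracts monocytes through the receptor Ccr2, and Ccl7 (chr11:82045712-82047525) acts on monocytes through some of the same receptors. Ccl11 (chr11:82057832-82062955), or eotaxin, recruits eosinophils through Ccr3. Region counts per window were 8 for Ccl2, 6 for Ccl7 and 6 for Ccl11, and 4, 5 and 5 of these were in every library. The windows overlap, so these counts share regions.

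The highest peak of the locus lay 3.78 kb above Ccl11 (chr11:82066734-82067610), in no gene body. Here and below, "above" and "below" mean toward higher and lower coordinates, and fold enrichment is the authors' value at the summit over the same library's local background. Its fold enrichment was 13.2, 9.88 and 12.4 in control 1, 2 and 3 and 14.5, 16.1 and 11.6 in knockdown 1, 2 and 3. The region ranked within the top 1.71% to 8.09% of its lists, with 20 to 43 tags at the summit, and the values of the groups overlapped. A second region, 10.8 kb above Ccl11, gave 8.56, 7.55 and 10.3 in control and 9.96, 10.6 and 6.66 in knockdown libraries. At Ccl11 itself no library had a peak within 1000 bases of either gene end.

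Below Ccl2, a broad region 2.12 kb from the gene (chr11:82032235-82033453) was open in 6 of 6 libraries. Its strongest peak reached 6.92, 5.42 and 6.14-fold enrichment in control libraries and 7.49, 6.59 and 4.96 in knockdown libraries. It was called as 2 peaks in 5 libraries and as 1 peak of 1176 bases in knockdown 3. At the lower end of the Ccl2 gene (chr11:82035432-82035724) only control 1, knockdown 1 and knockdown 2 had a peak, with fold enrichments of 3.98, 3.88 and 4.13. These are 3 of the 4 deepest libraries. The region 0.73 kb above Ccl2 was present in all 6, at 6.23, 4.05 and 5.95 in control and 3.22, 4.23 and 5.29 in knockdown libraries.

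Ccl7 had peaks at both gene ends in 6 of 6 libraries. Its lower-end region (chr11:82045544-82046108) showed fold enrichments of 5.68, 5.10 and 7.53 in control and 6.77, 6.70 and 4.91 in knockdown libraries. The region 0.27 kb above the gene showed 5.68, 6.65 and 6.09 in control and 4.17, 7.14 and 4.51 in knockdown libraries. In both, values of the groups overlapped.

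**Figure D2:**
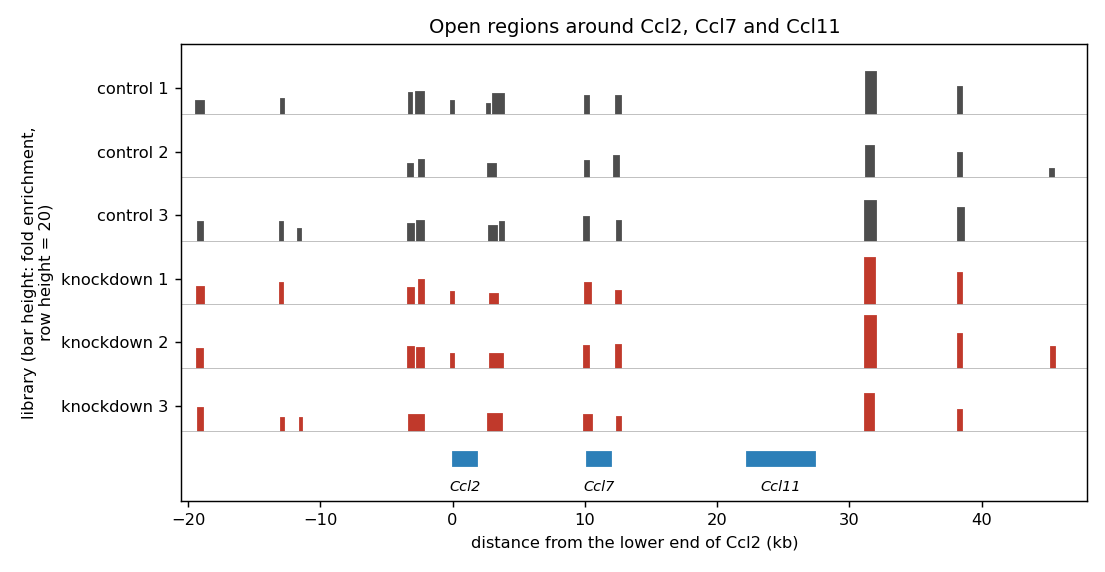
Peaks of each library along the locus of Ccl2, Ccl7 and Ccl11, with distance in kb on the horizontal axis, bar height as fold enrichment, grey for control and red for knockdown libraries, and genes in blue. The tallest bars, 3.78 kb above Ccl11, reach 9.88 to 16.1-fold in the 6 libraries.

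Ccl5 (chr11:83525778-83530518), also known as RANTES, attracts T cells and monocytes. Its window held 7 regions, 1 of them in every library, and parts of Taf15 and Heatr9. The constant region lay 3.91 kb above the gene (chr11:83534430-83535254), with fold enrichments of 12.7, 12.8 and 13.7 in control and 12.5, 13.0 and 11.9 in knockdown libraries. It held 29 to 52 summit tags, ranked in the top 1.43% to 8.27% of its lists, and had values in a narrow range across groups. A region within Heatr9, 8.39 kb below Ccl5, had 11.4 and 8.45 in control 1 and 3 and 11.5, 11.1 and 9.45 in knockdown 1, 2 and 3, with no peak in control 2. No library had a peak within 1000 bases of either end of Ccl5.

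Inside the Ccl5 gene, 2244 bases above its lower end and 2087 below its upper end, lay a region called in the 3 knockdown libraries and in no control library (chr11:83528022-83528431). The knockdown values were 7.84, 8.27 and 4.16-fold enrichment, at −log10 q of 9.46, 10.5 and 2.65 and with 12, 13 and 5 summit tags. Their mean fold enrichment was 6.76 ± 2.26 (SD, n = 3). Knockdown 1 and 2 thus had clear peaks, and knockdown 3 a weak one. The nearest control peaks were 5.55, 6.09 and 5.58 kb away in control 1, 2 and 3.

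Cxcl12 (chr6:117168535-117181368, plus strand), or SDF-1, retains and attracts cells bearing Cxcr4, and is often described as a homeostatic rather than an inflammatory chemokine. Its knockdown-only region lay 4.07 kb above the gene (chr6:117185437-117185970), in no gene body. Fold enrichments were 3.95, 4.30 and 5.43 in knockdown 1, 2 and 3, at −log10 q of 2.46, 3.06 and 4.80 and with 5, 5 and 6 tags. Their mean was 4.56 ± 0.773 (SD, n = 3). All 3 peaks were weak, and the 2 deeper libraries had the lower values. Control 1, 2 and 3 had their nearest peaks 2.67, 16.5 and 11.1 kb away.

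These 2 regions are the knockdown-only ones among the 52, beside 0.432% of all regions (368 of 85174), and the share is read no further because it entered the choice of genes. Control-only regions numbered 0 of 52, beside 0.277% (236) in the genome. Of the 10 genes, 2 had a knockdown-only region in their window (1.96% of 21887 protein-coding genes) and 0 a control-only one (1.24%). These 2 regions were chosen on their presence, so no p is read for them. In Fisher's exact test (two-sided) over all regions, 3 libraries against 3 cannot give a p below 0.1, so no region of the genome could pass 0.05. With peaks of −log10 q of 5 or more, 0 of the 52 regions were knockdown-only: Ccl5 kept 2 of its 3 libraries, and all peaks at Cxcl12 were lost. With lists cut to the strongest 33248 peaks each, the number was again 0, with peaks in 2 knockdown libraries at Ccl5 and in 1 at Cxcl12. Where a peak had to cover 50% of a region, Cxcl12 kept 2 knockdown libraries and Ccl5 all 3.

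Regions just short of that call are given for comparison. The region 8.45 kb below Cxcl5 had peaks in knockdown 1 (5.58-fold) and knockdown 2 (4.26-fold) only. The region 14.3 kb above Cxcl10 had them in knockdown 1 (7.76-fold) and knockdown 3 (5.73-fold) only. It overlapped the upper end of Cxcl11, which is annotated as a transcribed pseudogene. In the opposite direction, a region 19.6 kb above Cxcl10 had peaks in control 1 (4.77-fold) and control 3 (4.94-fold) alone, so it was control-only once control 2 was left out.

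**Figure D3:**
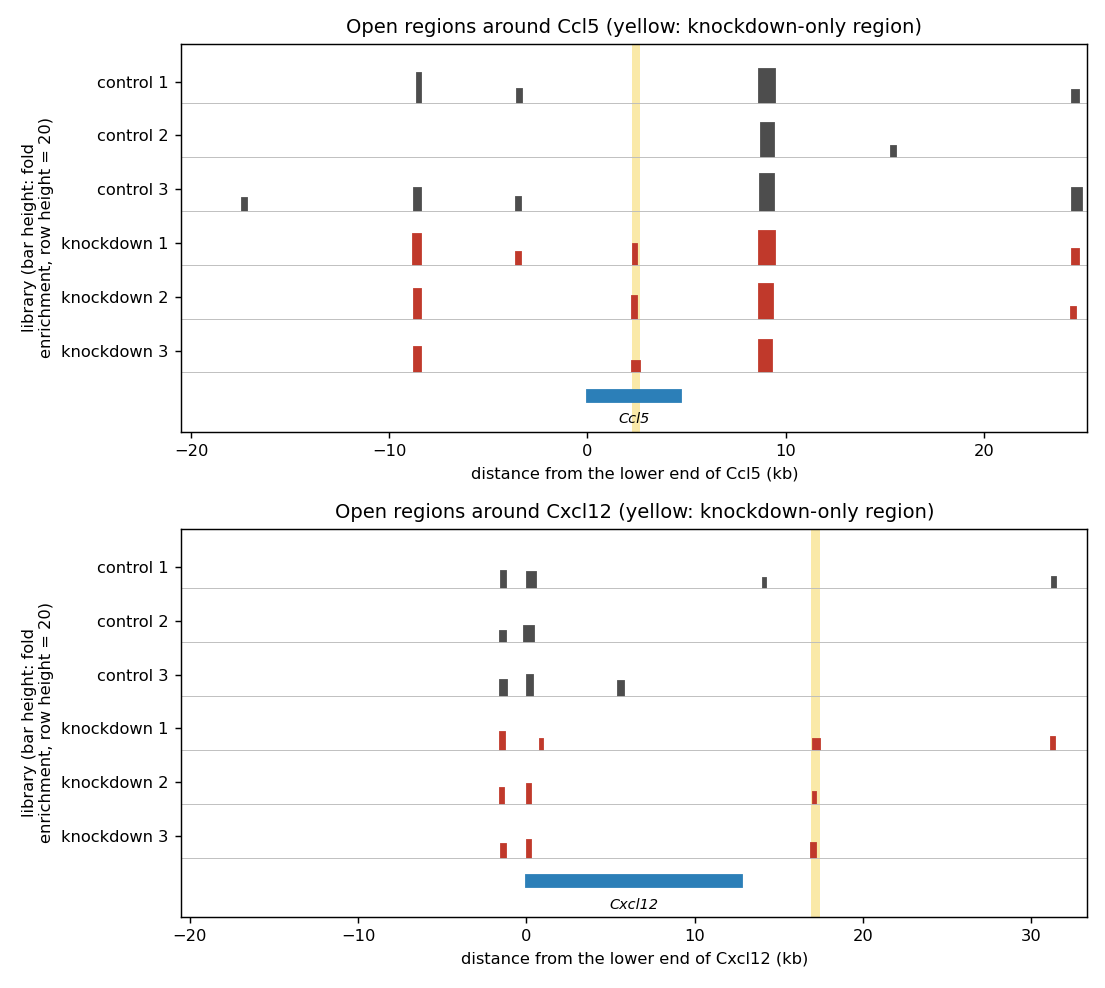
Peaks of each library around Ccl5 and Cxcl12, with distance in kb from the gene's lower end, bar height as fold enrichment, grey for control and red for knockdown libraries, genes in blue and the knockdown-only regions in yellow. In the yellow bands only the red rows have bars, from 4.16 to 8.27-fold at Ccl5 and from 3.95 to 5.43-fold at Cxcl12.

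At the Cxcl12 start, 5 libraries had a peak with its summit 55 to 153 bases downstream, with fold enrichments of 6.21, 6.0 and 7.91 in control 1, 2 and 3 and 7.44 and 6.43 in knockdown 2 and 3. Knockdown 1 instead had a peak of 4.0-fold that ran from 803 to 1010 bases downstream. A region 1.16 kb upstream was open in all 6, at 6.45, 4.15 and 6.04 in control and 6.71, 5.79 and 4.94 in knockdown libraries. The remaining 3 regions of the Cxcl12 window were each called in 1 or 2 libraries.

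Cxcl1, Cxcl2 and Cxcl5 encode ligands of Cxcr2 that draw in neutrophils. Cxcl1 (chr5:90891245-90893121, plus strand) had the same start-site region open in 6 of 6 libraries. Its fold enrichment was 8.20, 6.97 and 7.34 in control and 8.11, 8.88 and 8.96 in knockdown libraries, with 21 to 47 tags. Summits lay 52 to 211 bases downstream of the start, and in 5 libraries the peak covered the whole printed stretch with the kappaB match. The exception was control 2, whose peak began 6 bases downstream. Values of knockdown libraries were high in this region, but knockdown 1 (8.11) lay below control 1 (8.20), so the groups overlapped.

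Cxcl2 (chr5:90903899-90905938, plus strand) had a weaker start region, at 3.70, 3.99 and 3.70-fold in control 1, 2 and 3, 6.19 and 4.62 in knockdown 2 and 3, and no peak in knockdown 1. Where called, its peaks held 5 to 11 tags, with summits 274 to 27 bases upstream of the start. Peaks of 3 libraries covered the printed stretch in full and 1 more in part. Knockdown 2 and 3 were above the controls, but knockdown 1 was not called, so the group itself was split. The shared locus of Cxcl1 and Cxcl2 held 7 regions, 2 in every library: the Cxcl1 start and one 14.2 kb below Cxcl1, with fold enrichments from 4.74 to 6.67.

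Cxcl5 (chr5:90759298-90761625) had 7 regions, 3 of them in every library: 4.85 kb below and 2.37 and 17.4 kb above the gene. The region 17.4 kb above gave fold enrichments of 6.61, 6.03 and 6.72 in control and 10.0, 10.4 and 4.87 in knockdown libraries. Knockdown 1 and 2 were high and knockdown 3 was the lowest of all, so the groups overlapped. At the lower gene end, peaks were found in control 1 and 3 (6.73 and 6.04) and knockdown 1 and 2 (7.44 and 7.00), the 4 deepest libraries. The Cxcl5 window also contained Ppbp and Pf4, the genes of platelet chemokines.

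Cxcl10 (chr5:92346638-92348889, minus strand), an interferon-induced ligand of Cxcr3 that attracts activated T cells, had no region open in every library. It lies within the annotated body of Art3, which encodes an ADP-ribosyltransferase, and all 7 of its regions overlap Art3. Its start region was called at 7.49 and 9.35-fold in control 1 and 3 and at 7.6 and 8.89-fold in knockdown 2 and 3. Neither control 2 nor knockdown 1 had it, so each group lost 1 library. Summits lay at -59 and -17 from the start in the control libraries and at -69 and -73 in the knockdown libraries, the latter within the AP-1 match. In control libraries 3, 0 and 3 regions of this window were present, and in knockdown libraries 2, 3 and 4. The Cxcl10 window also held part of the chemokine gene Cxcl9, and Cxcl11, annotated as a transcribed pseudogene.

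Cx3cl1 (chr8:94772180-94782427, plus strand), or fractalkine, is a membrane-anchored chemokine that is shed by the proteases Adam10 and Adam17 and binds Cx3cr1. Its start region was called in control 1 (5.54-fold), knockdown 1 (6.31) and knockdown 2 (5.56). The window's regions in every library lay outside the gene, 5.13 and 19.8 kb above it. The nearer gave 8.36, 8.26 and 9.08 in control and 9.71, 7.71 and 10.7 in knockdown libraries, and the groups overlapped. A region 4.70 kb upstream had fold enrichments of 9.38, 4.45 and 8.55 in control and 9.60 and 5.54 in knockdown 2 and 3, and was not called in knockdown 1.

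**Figure D4:**
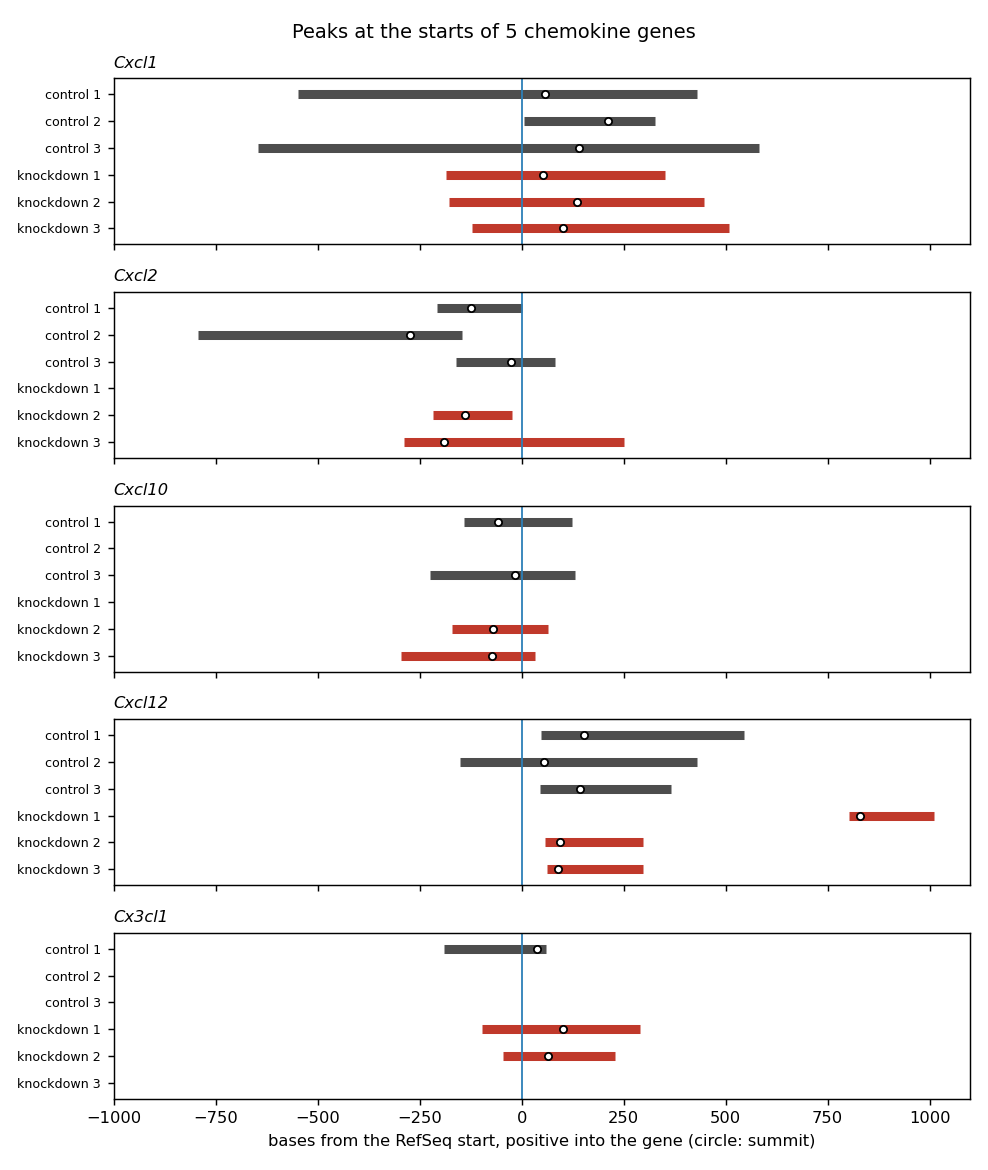
Position of start-site peaks of the genes with a known strand, as bases from the start site on the horizontal axis, for each library. Bars span the peak and points mark the summit; in Cxcl12, knockdown 1 stands apart, with its peak 803 to 1010 bases downstream.

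Counted together, 4 of the 10 genes had a peak within 1000 bases of a start or gene end in 6 of 6 libraries: Cxcl1, Cxcl12, Ccl2 and Ccl7. For Cxcl12 this count combines different regions. The strand of Ccl2, Ccl7, Ccl11, Ccl5 and Cxcl5 was not known from the tables, so for these either end counted. Among protein-coding genes with a known start the share was 38.5%, and among those judged by either end 33.0%. Cxcl2 reached 5 libraries, Cxcl10 and Cxcl5 4, Cx3cl1 3, and Ccl11 and Ccl5 0. Within 500 bases 2 genes remained.

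Absence from 1 library was looked at after these values had been seen. Of 8 regions present in 5 libraries, 5 lacked only control 2, the shallowest. The other 3 lacked only knockdown 1, which is among the deeper libraries: the Cxcl2 start, the Cxcl12 start and the region 4.70 kb upstream of Cx3cl1. In the genome, 4.92% of 9050 regions in 5 libraries lacked only knockdown 1, and 57.3% only control 2. No test was made, since the regions were singled out by their values.

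**Figure D5:**
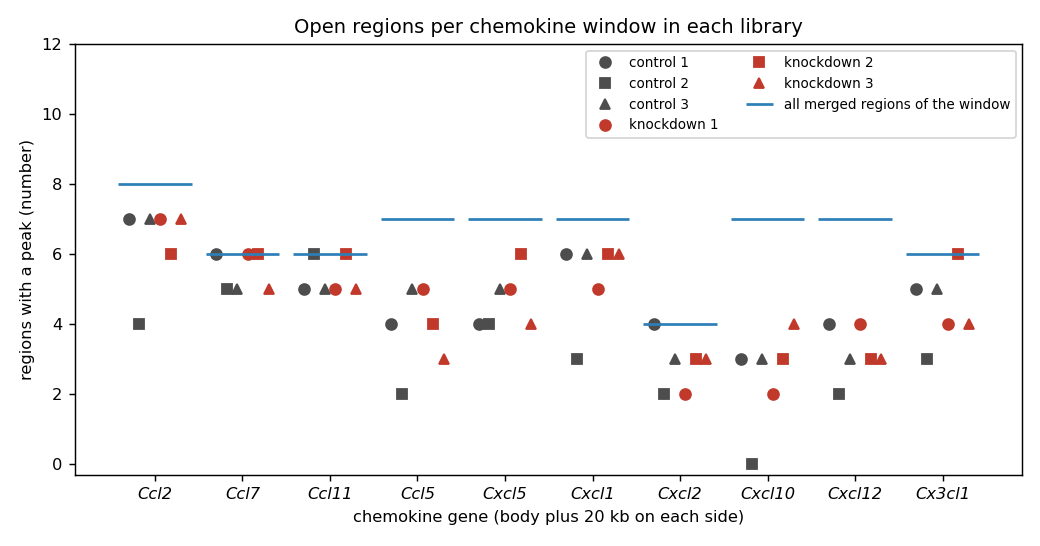
Number of regions with a peak in each library, per gene window, with control libraries in grey and knockdown libraries in red, and a blue line for all merged regions of the window. Control 2 is lowest or joint lowest in every window but that of Ccl11, and reaches 0 for Cxcl10.

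Just inside the window edge were regions 19.8 kb from Cx3cl1, 19.7 kb from Ccl5 and 19.6 kb from Cxcl10. Just outside it lay one 20 kb below Ccl2, in 3 control and 3 knockdown libraries, one 20.3 kb above Cxcl10, in 3 control and 2 knockdown libraries, and one 21.5 kb above Cxcl12, in 3 of each. None of these 6 was knockdown-only or control-only.

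Other genes of the chemokine system were counted from a fixed list. Over all protein-coding genes, 38.5% had a start peak in 6 of 6 libraries and 41.1% in none where the start was known, and 33.0% and 41.8% where either end counted. Of 28 other ligands, 5 had a start or gene-end peak in 6 of 6 libraries (Ccl25, Cxcl16, Ccl8, Ccl3 and Ccl4) and 19 in none. No knockdown-only region lay in their windows, beside 1.96% of all protein-coding genes. Control-only regions lay in the windows of 3 of the 28, beside 1.24% of all protein-coding genes, and the difference was not tested. They lay near Ccl20 and, as the same region for both genes, in the shared window of Cxcl3 and Cxcl15. The latter (chr5:90804489-90804986) had fold enrichments of 6.6, 3.61 and 5.77 in control 1, 2 and 3, with 3 to 7 tags. It lies in the cluster that also holds Cxcl5 and Cxcl1 but outside their windows.

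Of 18 receptors, Ccr10 alone had a start or gene-end peak in every library, and 13 had none in any. Those at 0 included Ccr2, Ccr3, Cxcr2, Cxcr3 and Cx3cr1, receptors of the ligands described here. Cxcr4 and Ccr6 had a peak in 1 library, Ccr1 in 3 and Cxcr5 in 4. Knockdown-only regions lay near 2 of the 18 receptors, beside 1.96% of all protein-coding genes, and the difference was not tested. They lay near Ccr6, at 7.03, 6.99 and 5.43-fold and 6.06 kb from the gene, and near Cxcr6, at 4.97, 3.30 and 4.55-fold. A control-only region lay 16.8 kb below Ccr10, at 7.10, 2.71 and 5.47-fold. Ccr10 was the only 1 of the 18 with such a region, beside 1.24% of all protein-coding genes, and this was not tested either. Of 5 atypical receptors, which do not signal through G proteins, none had a start peak in every library and 3 had none. Ackr3 and Ccrl2 had a start peak in 5 libraries. Of 5 proteases that cut chemokines, Adam10 and Adam17 had a start peak in 6 libraries, and Dpp4 and Ctss in none.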

How the data were processed

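ATAC-seq peak lists of 6 libraries (3 negative control, 3 Arid3a knockdown) were used as deposited. Bowtie2, Picard, MACS2 and build mm10 are named in the submitters' processing notes; no source used here gives their versions, how duplicates were treated, any Tn5 shift or the caller's settings. Per peak, the authors deposited a fold enrichment (a ratio to local background), −log10 p and −log10 q, and a score; peaks were called per library. The fold and −log10 q served only to describe and filter peaks. Their smallest −log10 q was 1.3 to 1.32.

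Peaks were merged at 1 base of overlap, and a library was present in a region that 1 of its peaks overlapped. Fisher's exact test was run on presence per region over the genome, two-sided, with Benjamini-Hochberg adjustment over all 85174 regions. Depth was estimated from the tags that fold and −log10 p imply under a Poisson model (at least 99.996% of peaks came out whole within 0.001), assuming a genome of 1.87 gigabases; the median summit held 8 to 11 tags, so weak peaks may be missed. Gene positions came from RefSeq GRCm38.p6. All 10 genes were named; other genes were named where they lie in a window, or by a start peak in 6 libraries or a group-specific region. Marker genes, and receptors, atypical receptors and proteases with fewer start peaks, were named outside this rule after their values were seen. The members and gene lists were chosen with earlier results of these data known. Alternatives were a stricter q, lists of equal length, other windows, 50% cover, single libraries left out and the 4 deepest libraries. Code was tested on simulated data, with Python 3.11.15, pandas 2.3.3 and SciPy 1.17.1. Groups of 3 libraries were too small for a search for outlying libraries. Some genes of the marker and receptor lists are not reported here.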

Additional observations from a re-analysis of the deposited data

How the results depend on the processing

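The windows held 52 regions, 33 at 10 kb and 86 at 50 kb on each side. Regions in every library numbered 15, 9 with peaks of −log10 q of 5 or more, and 23 over the 4 deepest libraries, a setting added after the data were seen. Knockdown-only regions numbered 2, but 0 with −log10 q of 5 or more and 0 with lists of equal length; both settings drop the weakest peaks. Leaving out single libraries gave 2 to 3. With peaks required to cover 50% of a region the number was 2, but with the region 14.2 kb below Cxcl1 in place of that at Cxcl12. That Cxcl1 region had a peak in 6 of 6 libraries, and its control peaks fell short of 50% cover. Control-only regions numbered 0, 1 at 50 kb, 1 over the 4 deepest libraries and 0 to 1 with single libraries left out, the 1 without control replicate 2. Genes with a start or gene-end peak in every library numbered 4, 2 within 500 bases and 2 with −log10 q of 5 or more. A replicate block over the replicate numbers gave 0.25 as the smallest exact p of a region in the windows in place of 0.1, a limit of the design in both. The numbers of the knockdown libraries may name siRNAs, and no pairing with the control libraries is stated. The 0.1 belongs to the regions at Ccl5 and Cxcl12, which were chosen on their presence. The smallest p was 0.4 with −log10 q of 5 or more and with lists of equal length. It was 0.333 over the 4 deepest libraries, and 0.1 with each single library left out. These values follow from the numbers of libraries and the choice of regions, so none is read as a result. The median summit held 8 to 11 tags and the peaks at Cxcl12 5 to 6; the part of depth in these calls was not tested.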
